A study of Mus musculus with 6 samples.

Results

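The oligos described here carry a joined ETS and CRE site at the very end of a 60-base probe, in reverse orientation, so that the CRE fills the first 8 bases and the ETS motif lies inward of it. They were chosen by sequence alone: custom probes that start at base 1 with the reverse complement of the 16-base site, either intact or with 1 or 2 substitutions that all lie at positions 10 to 16. This gave 211 of the 6889 custom sequences and of the 10812 sequences other than controls: the intact site, 21 single and 189 double substitutions. Positions are counted from 1 at the 5′ end of the forward site, and a substitution such as A11C names the base of the forward site first. In this placement site position 16 is probe base 1 and site position 9 is probe base 8. Each changed sequence had 24 spots per array and the intact sequence had 48, under 2 probe names.

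The series measured binding of mouse GABPα and CREB1 DNA-binding domains to double-stranded probes, and asks how CREB1 affects GABPα at a composite site. Tagged GABPα alone, tagged GABPα made beside untagged CREB1, and tagged CREB1 alone were each put on 2 arrays. Each protein was made in a cell-free translation reaction from 570 ng of the plasmid for the glutathione S-transferase fusion in 250 µl, run for 2 h at 37 °C, of which 230 µl went on the array. The mixed reactions also received 66 ng of a plasmid for CREB1 without the tag, so their signal comes from the tagged GABPα only. The labels call both proteins bZIP domains, although GABPα belongs to the ETS family. No full-length protein was used. Nothing in the labels tells if replicate arrays had independent reactions, and p-values then measure only array-to-array spread, which may be technical.

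GABPα belongs to the ETS family of transcription factors, which contact a GGAA core with a winged helix and read the bases around it more weakly. CREB1 binds as a dimer of basic leucine zippers to the cAMP response element, TGACGTCA, a palindrome in which each monomer contacts one arm, and the CpG in its middle is shared. Because the element is a palindrome, positions 10 and 15, 11 and 14, and 12 and 13 are mirror partners that a lone symmetric dimer would meet alike.

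The intact probe is shown with the CRE in capitals, beside the intact probes of 3 other placements that serve as comparisons. In the middle and inner reverse placements the same letters lie 10 and 20 bases further in, and in the outer forward placement the ETS motif takes the end of the probe and the CRE lies inward.
outer reverse: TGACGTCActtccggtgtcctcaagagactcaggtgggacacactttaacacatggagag
middle reverse: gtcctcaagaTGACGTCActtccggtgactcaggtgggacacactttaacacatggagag
inner reverse: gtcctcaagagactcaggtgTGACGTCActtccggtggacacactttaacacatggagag
outer forward: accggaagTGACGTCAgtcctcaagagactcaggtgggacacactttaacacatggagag

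The changed sequences on which the results turn are shown by their first 16 bases, with the changed bases in capitals. The first line of each of the following pairs changes the CRE arm next to the ETS motif and the second its mirror partner at the probe's end.
A11C: tgacgGcacttccggt
T14G: tgCcgtcacttccggt
G10C: tgacgtGacttccggt
C15G: tCacgtcacttccggt
C12A: tgacTtcacttccggt
G13T: tgaAgtcacttccggt

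The next sequences change the 2 outermost bases, or hold a double substitution whose signal departed most from the sum of its singles.
C15A: tTacgtcacttccggt
A16G: Cgacgtcacttccggt
C15A+A16G: CTacgtcacttccggt
C15A+A16C: GTacgtcacttccggt
A11T+G13A: tgaTgAcacttccggt

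Signal is given throughout as log2 of the processed intensity minus the array's 75th percentile, so that 0 is the 75th percentile of the 1143 sequences above background on every array. Tests are limma with Benjamini-Hochberg adjustment over every sequence fitted, at a threshold of 0.05. Per array, 16.7% to 23.9% of all sequences were above background with tagged GABPα and 55.3% and 59.3% with CREB1. All 211 sequences of the placement were above background on all 4 GABPα arrays. On the CREB1 arrays 103 were above background on both, 55 on 1 and 53 on neither, so the weaker CREB1 values rest on signal near background. Across the 211 sequences, replicate arrays had an r of 0.734 (GABPα alone), 0.912 (CREB1 added) and 0.918 (tagged CREB1). These points share arrays and differ in at most 2 bases from the intact site.

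The intact site at the end of the probe gave a strong GABPα signal and a weaker CREB1 signal than the same site further in. With GABPα alone it read 0.89 and 0.78 on the 2 arrays, with CREB1 added 1.21 and 1.27, and with tagged CREB1 -0.29 and -0.27. The 2 arrays of each group lay close together and the GABPα groups did not overlap. The 2 probe names of the intact sequence differed by between -0.16 and 0.24 on single arrays. With GABPα alone the intact middle reverse probe read -0.37 and -0.19 and the inner reverse probe -1.21 and -1.30. The outer reverse probe was thus higher than the middle reverse by 1.12 ± 0.15 (SE; n = 2 arrays; adjusted p = 0.001; 2.17-fold) and higher than the inner reverse by 2.09 ± 0.13 (SE; adjusted p = 4.5e-05; 4.26-fold). With CREB1 added the same differences were 0.83 (adjusted p = 0.006) and 1.79 (adjusted p = 0.00012).

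For tagged CREB1 the order was turned around. The intact outer reverse probe differed from the middle reverse by -1.60 (adjusted p = 5.0e-05, 3.03-fold lower) and from the inner reverse by -1.56 (adjusted p = 7.3e-05, 2.95-fold lower). On both arrays its values lay below those of the other placements. Of the intact spots, 23.9% and 25.0% were saturated in the middle reverse placement on the CREB1 arrays and 4.44% and 25.5% in the inner reverse placement, against none at the outer reverse end. A saturated spot reads no more than the scanner's upper limit, and the part of saturation in these gaps was not tested. The outer forward probe, whose site also starts at base 1 but with the ETS motif outermost, was not well above background on either array with GABPα alone, so that the outer reverse probe was at least 12.7-fold higher there (fitted difference 5.40, adjusted p = 2.2e-07). For CREB1 the outer reverse probe was the lower of the pair (difference -1.22, adjusted p = 0.00013, 2.33-fold).

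The changed sequences followed the intact one in these levels. All 211 were higher than their middle reverse counterparts with GABPα alone, against a background of 45.0% of the 1129 variants of the site. With CREB1 added 194 were higher, against 34.7%, and for tagged CREB1 208 were lower, against 99.7%, so the last share is that of the site's variants in general.

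With GABPα alone, changes in the CRE at this end of the probe made little difference. The 210 changed sequences had levels between 0.38 and 1.05, a range that includes the intact probe's mean of 0.84. Only 3 doubles were lower than the intact site, against 68.5% of the 6768 substituted sequences in all 6 placements, most of which change the ETS side. No member was higher. The 3 were G10C+T14G at 0.31 and 0.46 (effect -0.45 ± 0.18 SE, adjusted p = 0.038), A11T+T14C at 0.50 and 0.59 (effect -0.30, adjusted p = 0.028) and G10C+T14C at 0.56 and 0.58 (effect -0.27, adjusted p = 0.040). On both arrays these 3 lay below both intact values. Leaving out either GABPα alone array left 0 sequences past the threshold, while leaving out either CREB1 array gave 10 sequences. None of the 21 singles passed, and their effects ran from -0.20 for G10A to 0.11 for C15A.

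Each of 3 doubles put a second GGAA, on one strand or the other, inside the changed CRE: G10T+A11C, G13T+A16C and T14G+C15A.
G10T+A11C: tgacgGAacttccggt
G13T+A16C: GgaAgtcacttccggt
T14G+C15A: tTCcgtcacttccggt
With GABPα alone their effects in the outer reverse placement were 0.02, 0.21 and 0.04, and none passed the threshold. G13T+A16C had a mean of 1.05, and each of its arrays lay above both intact values of 0.89 and 0.78. In the outer forward placement the same double read -1.08 and -1.36 with GABPα alone and was above background on both arrays, where the intact probe was on neither, while G10T+A11C and T14G+C15A were on neither.

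When CREB1 was added, the intact probe's GABPα signal was higher on both slides and nearly all CRE-changed probes gave less. The intact site gained 0.31 on the slide that held replicate 1 and 0.48 on the slide that held replicate 2 (mean 0.40 ± 0.07 SE, 1.32-fold). This did not pass the threshold over all sequences (adjusted p = 0.069). Among the 211 sequences 121 fell and 0 rose past the threshold, against 3.58% falling and 6.73% rising among all 10812 sequences. At an unadjusted p under the same threshold 189 were lower and 5 higher. The median change of the 210 changed sequences was -0.55, against -0.18 for all sequences. The 2 arrays with CREB1 lay below both arrays without it for 195 sequences and above both for 8. Neither this count nor that at an unadjusted p was made over all 10812 sequences, whose median change was also below 0.

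The number of falls rested on the fit and the scaling. Leaving out any 1 of the 4 GABPα arrays, the replicate block, the normexp correction, unscaled values or the authors' deposited table each gave 0 falls, whereas a fit over custom sequences alone gave 190. The intact site's own change was 0.19 on unscaled values and -0.45 with the percentile taken over all spots. Relative to the median of all sequences the intact site stood 0.58 higher and the changed sequences' median 0.37 lower. The percentile over all spots and unscaled values shift each array by a constant, so they cannot change these 2 gaps. After quantile normalization they were 0.47 and 0.27, and with the normexp correction 0.45 and 0.41. In the authors' value table, over its 6885 sequences, the intact site stood 0.93 higher and the changed sequences' median only 0.06 lower.

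The 4 largest falls past the threshold were in doubles that changed position 10 or 11 and another base. A11T+T14C went from 0.50 and 0.59 to -0.19 and -0.23, and fell by 0.75 on the log2 scale (adjusted p = 0.019). A11G+C12A fell by 0.74 (adjusted p = 0.028), A11C+A16T fell by 0.74 (adjusted p = 0.018) and G10T+G13T fell by 0.73 (adjusted p = 0.017). For all 4 both arrays with CREB1 lay below both arrays without it. In the other direction the largest values belonged to changes at the 2 outermost bases: C15A+A16G at 0.82 and 0.80 without CREB1 and 1.39 and 1.19 with it (change 0.47, adjusted p = 0.082), C15A at 0.91 and 0.98 against 1.28 and 1.26 (change 0.33, adjusted p = 0.067). None of these passed.

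The change on adding CREB1 was also grouped by which half-site of the palindrome was left intact. Where positions 9 to 13, the half-site next to the ETS motif, were intact and the far arm was changed, 0 of 36 sequences fell and the median change was -0.18. Where only positions 12 to 16, the half-site at the probe's end, were intact, 12 of 15 fell with a median of -0.65. Where neither was intact 109 of 159 fell with a median of -0.57. The median over all 10812 sequences was -0.18 too, and 3.58% of them fell. These counts divide the 121 falls, which rested on the fit and the scaling as given above.

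The gain of the intact site was compared with that in other placements. It was 0.69 in the middle reverse and 0.70 in the inner reverse placement, and the differences to the outer reverse gain were -0.29 ± 0.20 (SE, adjusted p = 0.43) and -0.30 ± 0.17 (SE, adjusted p = 0.36), which were not resolved. In the outer forward placement the intact site rose from below background by at least 4.41-fold, and the outer reverse gain minus that bound was -1.74 (fitted difference -3.48, adjusted p = 0.00099). Of the 210 changed sequences 141 also had a lower change than their outer forward counterparts, against 25.1% of the 1129 variants. An outer forward counterpart at background without CREB1 cannot show a fall, and the part of that limit in this count was not tested. G10T+A11C, for example, had means of -4.63 and -4.82 there without and with CREB1, above background on no array.

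Measured against the intact site on the same array, which cancels scaling between arrays, GABPα signal fell with almost every CRE change once CREB1 was present. Of the 210 changed sequences 205 were lower than the intact site, against 99.0% of the 6768 substituted sequences in all placements, so the count is no higher than that of substitutions in general. The median effect was -0.97. The 5 exceptions were C15A, C15A+A16C, C15A+A16G, C15A+A16T and C15G+A16G, all at the far end of the site. C15A read 1.28 and 1.26 beside 1.21 and 1.27 for the intact probe, and the values overlapped. By position, the mean effect of the 3 singles was -0.96 ± 0.05 (SD, n = 2 arrays) at position 10, -1.14 at 11, -0.90 at 12, -0.93 at 13, -0.74 at 14, -0.28 at 15 and -0.38 at 16. The strongest singles were A11C at 0.02 and 0.07 (effect -1.19) and G13C at -0.04 and 0.12 (effect -1.19), both below the intact probe on each array.

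The lowest doubles with CREB1 present were A11T+T14C (effect -1.45, adjusted p = 2.9e-08), G10C+A11C (effect -1.42, adjusted p = 1.0e-05), G10T+A11T (effect -1.38, adjusted p = 1.6e-06) and G10C+T14G (effect -1.34, adjusted p = 9.3e-06). Each changes position 10 or 11, as does a large part of the 189 doubles by the counts given above. The lowest changed sequence read -0.21 on average with CREB1 added, and the medians of the changed sequences were 0.26 and 0.28 on the 2 arrays.

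A direct test compared each effect between the reactions that had CREB1 and those that lacked it. The effect was lower with CREB1 for 202 of the 210 changed sequences, against 86.1% of all substituted sequences, with a median of -0.95 here and -0.88 over all. On both slides the difference was below 0 for 206 of the 210 changed sequences, a count that was not made over all substituted sequences. With the replicate block 196 passed. None passed on the values of the authors' deposited table. This fit shared its spread almost fully across sequences, so the SE was nearly the same for every difference (0.17) and the p-values rest on that common spread.

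The 8 sequences that did not pass all keep positions 9 to 13 and change only positions 15 and 16. They include C15A (-0.07, adjusted p = 0.67), A16C (-0.30, adjusted p = 0.071) and A16G (-0.31, adjusted p = 0.063), and C15A+A16G was the only sequence with a value above 0 (0.08, adjusted p = 0.66). The other singles at these positions passed: C15T (-0.51, adjusted p = 0.0023), C15G (-0.36, adjusted p = 0.033) and A16T (-0.38, adjusted p = 0.024). The largest differences were G10C+C12A (-1.19, adjusted p = 6.8e-12), A11T+T14C (-1.15, adjusted p = 2.7e-11), A11G+C12A (-1.14, adjusted p = 4.7e-11) and A11C+A16T (-1.14, adjusted p = 4.6e-11). G10C+C12A read 0.79 and 0.71 without CREB1 and 0.09 and -0.17 with it. By half-site the median difference was -0.58 where only positions 9 to 13 were intact, -1.05 where only positions 12 to 16 were and -0.97 where neither was.

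Tagged CREB1 signal depended unevenly on the CRE at the end of the probe: the mean loss was largest for changes at position 11, then 13, 12 and 10, and smallest at positions 15 and 16, the probe's terminal bases. Of the 210 changed sequences 205 were lower than the intact site, against 78.7% of all substituted sequences, and all 21 singles were lower. The mean effect of the 3 singles was -2.35 ± 0.28 (SD, n = 2 arrays) at position 10, -3.36 ± 0.43 at 11, -2.56 ± 0.38 at 12, -3.03 ± 0.32 at 13, -1.45 ± 0.21 at 14, -0.51 ± 0.05 at 15 and -0.50 ± 0.06 at 16. The steps from position 13 to 14 and from 14 to 15 were larger than the spread between arrays, and positions 15 and 16 did not differ beyond it. The means at 11 and 13 hold fitted values of sequences near background, so the order among positions 10 to 13 is that of the fitted values. In the outer forward placement, where positions 15 and 16 lie inward, they also had the smallest mean losses (-0.63 and -0.43). The same held in the middle forward (-0.58 and -0.48) and inner forward placements (-0.98 and -0.93). In the middle and inner reverse placements the smallest were at position 15 (-0.42 and -0.55) and position 10 (-0.56 and -0.62).

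Among the singles, A11C read -4.60 and -3.87 against -0.29 and -0.27 for the intact site and was not well above background on either array, a loss of at least 14.1-fold (adjusted p = 4.9e-11). G13T and G13C were likewise below background on both arrays, with losses of at least 11.7-fold and 9.87-fold. A11T read -3.45 and -3.59, 9.46-fold lower, and G10C -3.09 and -2.98, 6.74-fold lower. At the other end of the scale C15A read -0.57 and -0.51, 1.20-fold lower (adjusted p = 0.041), and A16G -0.61 and -0.57, 1.24-fold lower (adjusted p = 0.021). All of these values lay below both intact values. The lowest doubles that stayed above background on both arrays were G10C+T14C (effect -3.27), C12A+T14G (effect -3.20), G10C+C15T (effect -3.14) and C12T+T14C (effect -3.14).

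Some double changes of the outermost bases raised CREB1 signal above the intact site although each single lowered it. C15A+A16G read 0.16 and 0.08, 0.40 above the intact site (SE 0.11, adjusted p = 0.005, 1.32-fold), and C15A+A16C read -0.05 and 0.12, 0.32 above it (SE 0.11, adjusted p = 0.016, 1.25-fold). On both arrays both doubles lay above both intact values. These 2 of 210 stand beside 0.207% of the 6768 substituted sequences in all placements. The singles C15A, A16G and A16C had effects of -0.26, -0.31 and -0.58. C15G+A16G read -0.15 and 0.10, an effect of 0.26 that did not pass (adjusted p = 0.059).

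In the 3 other placements the same 2 doubles had effects below 0: C15A+A16G had -0.29 in the middle reverse, -0.33 in the inner reverse and -0.26 in the outer forward, and C15A+A16C had -0.52, -0.60 and -0.29. Against the outer forward placement, where no intact spot was saturated, the difference of effects was 0.66 for C15A+A16G (adjusted p = 9.9e-06) and 0.61 for C15A+A16C (adjusted p = 5.2e-05). In the middle and inner reverse placements the intact spots were in part saturated, as given above, so the effects there and any difference from them are not exact. In the plain intensities the intact probe's CREB1 signal here was also the lowest of the 6 placements.

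The palindrome gives a comparison between probes of the same array and placement, because mirror substitutions give the same changed CRE read from the other strand. All 6 pairs of positions 10 and 11 against 15 and 14 were lower at the arm next to the ETS motif, with fitted differences from -2.24 to -1.49 and a median of -1.87. G10C read -3.09 and -2.98 while its mirror C15G read -0.85 and -0.73, a difference of -2.24 (adjusted p = 1.2e-06, 4.73-fold). A11C, not well above background on either array, had lost at least 14.1-fold, and its mirror T14G, above background on both, was 3.40-fold lower than the intact site. A11G was above background on 1 array. In the CpG, only C12T and G13A were above background on both arrays as a pair, and C12T was 0.27 higher than G13A (adjusted p = 0.049). G13T and G13C were not well above background on either array, so the fitted differences of 0.85 for C12A against G13T and 0.30 for C12G against G13C are not measured on both sides. Over all 54 mirror pairs of the 6 placements 38.9% were lower and 9.26% higher at the ETS side past the threshold. Of the 6 arm pairs, 5 were lower past it in the inner forward placement. The count was 3 in the middle forward and in the outer forward, 2 in the middle reverse and 1 in the inner reverse placement. In the other 5 placements the median arm difference ran from -0.14 in the inner reverse to -0.72 in the inner forward placement. Whether these mirror differences themselves differ between placements was not tested pair by pair.

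The 9 doubles that change mirror partners together keep a palindrome.
G10T+C15A: tTacgtAacttccggt
A11C+T14G: tgCcgGcacttccggt
C12A+G13T: tgaATtcacttccggt
None kept the intact site's CREB1 signal: all 9 were lower, with a median effect of -3.02. G10T+C15A, at -2.54 and -1.88, was the highest of them (effect -1.93, 3.81-fold lower), beside G10T alone at -2.51 and -2.19. A11C+T14G was below background on both arrays, a loss of at least 14.3-fold. With CREB1 present all 9 were lower for GABPα too, from -0.63 for C12A+G13T to -1.09 for A11T+T14A, and with GABPα alone none passed.

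By half-site the CREB1 effect had a median of -1.11 over the 36 sequences that keep only positions 9 to 13, which were all above background on both arrays. It was -3.23 over the 15 that keep only positions 12 to 16, of which 4 were above background on both arrays, and -3.08 over the 159 that keep neither, of which 62 were. The first set and the others overlapped only in part, with levels from -2.49 to 0.12 against -4.24 to -2.35 and -5.05 to -2.21.

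The placement comparison of these effects depended on the arm. Intact spots of the middle and inner reverse placements were in part saturated on the CREB1 arrays, so effects there are not exact and the counts against them rest on that limit, whereas the outer forward placement had none saturated. Against the middle reverse placement 64 of the 210 effects were lower and 46 higher, where the 1128 substitutions of the whole site gave 51.5% lower and 5.14% higher. Against the inner reverse 36 were lower and 142 higher, beside 43.1% and 20.2%. Against the outer forward 25 were lower and 137 higher, beside 41.3% and 20.7%. The higher ones were almost all doubles: 46 of 46, 140 of 142 and 135 of 137. Among the 211 sequences 53 were below background on both CREB1 arrays here, and the part of that limit in these counts was not tested. Against the outer forward placement the lower count was 15 with the replicate block and 16 without the first CREB1 array. The singles show the arms apart. All 6 substitutions at positions 10 and 11 had lower effects than in the outer forward placement, with differences from -2.06 for A11T to -0.76 for G10A. G10C had an effect of -2.75 here and -1.23 in the outer forward placement, a difference of -1.52 ± 0.14 (SE, adjusted p = 6.5e-25). At positions 15 and 16 no single passed that test (differences from -0.11 to 0.20, each ± 0.14 SE). Among doubles above background on both CREB1 arrays, G10T+C15A (-0.80), G10T+A16T (-0.65), G10T+C15G (-0.63) and G10T+A16G (-0.62) had the most negative differences from the outer forward placement. Each of them pairs G10T with a change at position 15 or 16. In these tests too the spread was shared across all sequences.

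With CREB1 added, the GABPα effects were milder than in the outer forward placement for 180 of 210 sequences, against 39.4% of the site's variants. Their median difference was 2.87. Many outer forward values lay at background, and among the 122 sequences left when dim sequences were taken out 92 remained higher.

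Double substitutions were set against the sum of their singles on the log2 scale. With GABPα alone 0 of 189 departed from additivity in either direction, against 29.4% of the 6480 doubles in all placements, and 4 had an unadjusted p under the threshold. All 189 were above background together with both singles, which held for only 1397 of the 6480. Of those 1397, 34 were above the sum and 47 below. With CREB1 added 145 were above the sum, against 55.8%, and none below, with a median departure of 0.53. Here 1799 of the 6480 were above background together with both singles, of which 449 were above the sum and 264 below. Leaving out the first array with CREB1 gave 91 and leaving out the second gave 81. The largest were A11C+G13C (1.35, adjusted p = 0.00073), C12G+G13C (1.27, adjusted p = 1.1e-05), A11C+C12G (1.25, adjusted p = 8.7e-06) and A11T+G13C (1.12, adjusted p = 6.2e-05). A11C+G13C read 0.24 and 0.17, higher than A11C at 0.02 and 0.07 and G13C at -0.04 and 0.12 on both arrays.

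For CREB1 the sum can only be read where all 3 sequences were above background. This held for 82 doubles, of which 53 were above the sum and 0 below, beside 5.88% of the 5528 such doubles in all placements that were above it. A double that falls far is lost by this filter, so the count favours high values. The 27 doubles within the far arm are free of that choice, since all of them and all their singles were above background on both arrays: 22 were above the sum, with a median of 0.65 and a range from 0.14 to 1.16. Highest among them was C15A+A16C (1.16 ± 0.10 SE, adjusted p = 7.0e-05), followed by C15G+A16G (1.08), C15G+A16T (1.04) and C15A+A16G (0.97).

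Over the 82 the largest departure was A11T+G13A, which read -2.66 and -2.11. A11T alone read -3.45 and -3.59 and G13A alone -2.86 and -2.17, so that the double gave more signal than either single on both arrays (departure 3.37 ± 0.10 SE, adjusted p = 3.2e-06). The departures of C12A+G13A (2.63), C12G+G13A (2.49) and G10A+C12A (2.25) came next. For each of these doubles and for A11T+G13A, the singles add up to a level below -5.05, the lowest level of any changed sequence. A double kept by the filter therefore had to lie above that sum, and the sizes of these departures rest in part on that limit. The double A11T+G13A had effects of -1.76 in the middle reverse, -2.49 in the inner reverse and -1.98 in the outer forward placement beside -2.10 here.

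The GABPα change on adding CREB1 and the CREB1 signal of the same sequence ran together. Across the 211 sequences Pearson's r was 0.860 and Spearman's rho 0.596, and within the 103 above background for CREB1 on both arrays they were 0.930 and 0.802. Among the 53 below background on both CREB1 arrays r was -0.115, and their changes lay between -0.75 and -0.43 with a median of -0.60. These are descriptions across sequences that share arrays and nearly all of their bases. Tagged CREB1 was on its own slides with another scan day, so protein and slide cannot be told apart in any comparison of its level with those of GABPα.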

How the data were processed

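The deposited array files give, per the file headers, Cy5 spot intensity from Agilent Feature Extraction 12.0.1.1, background-subtracted and detrended by the scanner software, while the deposited value table gives a background-subtracted intensity for each probe name. Control and outlier spots were left out, log2 of the processed intensity was averaged over a sequence's spots, and each array's 75th percentile over sequences above background on all 6 arrays was subtracted. The headers set "well above background" at 13 standard deviations, and a sequence passed with more than a 0.5 share of such spots. Tests used limma 3.58.1 in R 4.3.3 (package data.table, version 1.17.8), with Python 3.11.15 and pandas 2.3.3 for tables, and were tested on simulated data. Adding CREB1, over 10812 sequences, and the difference of effects it made were tested on the 4 GABPα arrays. Effects, departures from additivity and placement differences used a mean per group over all 6 arrays. "At least" folds set the brighter mean against, per array, the lowest signal of sequences above background or the dim sequence's own value if higher.

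Named were the intact probe, all singles, the 4 largest doubles in each direction of a test, 9 palindromes and 3 second ETS cores. A few sequences were singled out after their values were seen. The members, lists and tests were chosen with earlier results of these data known. Replicate numbers of the GABPα groups matched slides. Deviations of same-numbered GABPα arrays correlated at r = 0.373 over all sequences and at -0.061 over those above background. The number of arrays limits the precision. Alternatives covered each array left out, the slide block, normexp, medians over spots, outliers kept, dim sequences left out, an intensity trend, scalings and the authors' values.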

Additional observations from a re-analysis of the deposited data

Results flagged for a closer look

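The effect of a CRE substitution on tagged GABPα differed between reactions with and without CREB1 in a direct test of the difference for 202 sequences. It was lower with CREB1 for 86.1% of the 6768 substituted sequences in all placements, so such a difference is not particular to these sequences. None passed on the authors' values. The largest difference was -1.19 for G10C+C12A and the smallest past the threshold was -0.33 for C15G+A16C, both on the log2 scale.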

How the results depend on the processing

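The 121 falls on adding CREB1 were the least steady count. There were 0 with any of the GABPα arrays left out, with the replicate block, with the normexp correction, in the authors' value table and without scaling. There were 18 with all 6 arrays in the fit, 31 after quantile normalization, 46 with medians over spots, 190 with an intensity trend or with custom sequences only, and 205 with the percentile over all spots. The cause was not tested. The intact site's change was 0.19 without scaling, 0.45 after quantile normalization, 0.52 in the authors' value table and -0.45 with the percentile over all spots, so its size and direction depend on scaling. At 0.40 it passed with dim sequences left out (adjusted p = 0.029), with an intensity trend or with custom sequences only. The 3 losses with GABPα alone were 7 with medians over spots, 1 with outlier spots kept or an intensity trend, 0 in the authors' value table and 0 to 10 with an array left out. Doubles above additivity with CREB1 added were 81 to 165 with an array left out. Outer reverse minus middle reverse with CREB1 added was 0.62 to 1.04 with an array left out, and did not pass at 0.62. The gain minus that of the inner reverse was -0.51 to -0.093 with an array left out, and passed at -0.51.

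On the authors' values 0 effects differed with and without CREB1, 26 measured CREB1 doubles exceeded additivity, and lower CREB1 effects numbered 27 against the middle reverse, 21 against the inner reverse and 6 against the outer forward placement. There the gain minus that of the inner reverse was 0.029 and minus that of the outer forward -1.71, not past the threshold. That last count was 15 with the replicate block, 12 with normexp and 16 to 26 with an array left out. With dim sequences left out, higher effects against the outer forward numbered 50 for CREB1 and 92 for GABPα with CREB1. The replicate block, which pairs arrays of 1 slide, left 204 of 205 losses for GABPα with CREB1, and apart from the 121 falls and the lower CREB1 effects against the outer forward placement it moved no count in these comparisons by over 1.5 times. Of 2688 alternatives of 211 named values past the threshold, 2309 kept their side of it, 379 lost it and 0 changed sign. The losses were uneven: on the authors' values 102 of the 211 lost the threshold and 109 kept it. Of 15 named changes on adding CREB1, 15 lost it without scaling and 12 with all 6 arrays in the fit. All 15 kept it with custom sequences only and with the percentile over all spots. CREB1 signal near background limits what the weakest sequences can show.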
